A study of Cairina moschata with 9 samples.

Results

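Abdominal fat of Muscovy duck (Cairina moschata) at 66 weeks of age was compared with abdominal fat at 35 weeks. All 3 libraries labelled 66 weeks and all 3 labelled 35 weeks entered, 6 of the 9 libraries of the series; the other 3 are from birds of 12 weeks. Each library is read as 1 bird, since the design text gives 3 birds of normal body weight per age. The birds carry no stated treatment or genotype, and their sex is not given. Of the 14814 genes in the deposited table, 11440 averaged 1 FPKM or more across these 6 libraries and were tested, which left 3374 untested. By definition, FPKM is the number of fragments scaled by the length of the gene model and by the mapped fragments of the library. How these libraries were in fact scaled is not given. The 66-week libraries carry lane code 5 in the labels and the 35-week libraries lane code 4. Effects of lane and of age therefore cannot be told apart here. Nothing further marks how the birds were kept or sampled, so p-values measure only the spread between samples, to which the 3 libraries of 12 weeks contribute in the limma fit.

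Abdominal fat is a main lipid store of poultry, built largely of adipocytes that hold triglyceride. In birds most fatty acids are made in the liver and reach this depot in lipoproteins, so the depot's size reflects uptake and release as well as its own synthesis. Stromal, vascular and blood cells share the tissue, and in a bulk sample fewer cells of a type and less RNA per cell cannot be told apart. The file gives genes by identifier with no gene name, so neither the label abdominal fat nor any pathway could be checked against marker genes. Genes are therefore described by identifier, level and fold change. No function is given for any gene.

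At 66 weeks, 132 genes were higher and 284 were lower than at 35 weeks (limma, adjusted p below 0.05). These are 1.15% and 2.48% of the genes tested. With all libraries scaled to the same sum of FPKM, 55 were higher and 460 lower, and with libraries weighted by their fit 1151 and 1269. The genes that fell moved further than those that rose. Their median log2 fold change, on the log2(FPKM + 1) scale used throughout, was -1.52, with an interquartile range of -2.12 to -1.17. The genes that rose had a median of 1.05, with an interquartile range of 0.77 to 1.5. A log2 fold change beyond 2 was reached by 80 of the 284 genes that fell and by 16 of the 132 that rose, and one beyond 3 by 16 and by 4. Among all tested genes the median was 0.03, and 3.07% lay beyond 2 in either direction. The smallest changes past the threshold were 0.51 in the genes that rose and 0.55 in size in the genes that fell.

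By median, the changed genes were more abundant than the tested genes as a whole. The median of the mean over the 6 libraries was 28.6 FPKM in genes that rose and 23.0 FPKM in genes that fell. Over all tested genes it was 17.7 FPKM. The genes that rose had a median level of 44.5 FPKM at 66 weeks, against 17.4 FPKM at 35 weeks. Their medians per library were 37.7, 40.7 and 46.5 FPKM at 66 weeks, against 18.5, 16.4 and 16.2 FPKM at 35 weeks. The genes that fell had a median level of 10.6 FPKM at 66 weeks, against 33.6 FPKM at 35 weeks. Per library their medians were 10.7, 11.1 and 9.8 FPKM at 66 weeks, against 29.8, 32.7 and 38.9 FPKM at 35 weeks. These levels describe genes that the same contrast selected and are no test of it. The median of all tested genes was 16.8 ± 0.272 FPKM in the 66-week birds and 16.9 ± 0.205 FPKM in the 35-week birds (SD, n = 3 each).

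**Figure D1:**
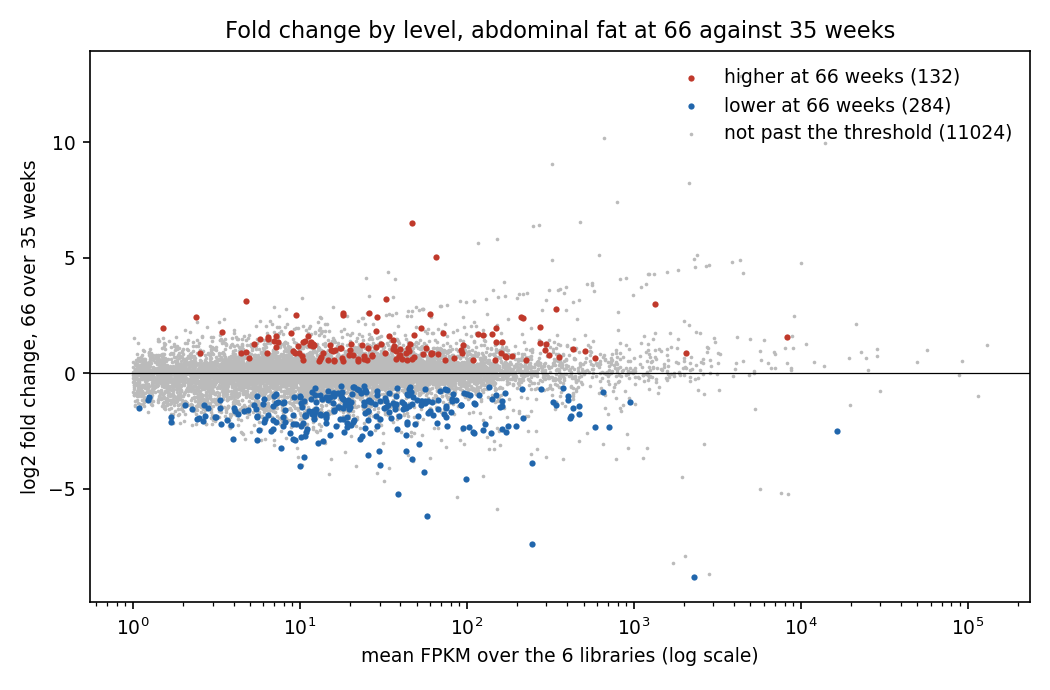
Each point is 1 of the 11440 tested genes, with its mean FPKM over the 6 libraries on a log axis and its log2 fold change of 66 over 35 weeks on the vertical axis. Red marks the 132 genes higher and blue the 284 genes lower at 66 weeks (limma, adjusted p below 0.05). Above about 100 FPKM the grey points hold many large fold changes that did not pass the test, more of them positive than negative. Some of these genes are listed at 0 in some libraries.

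Separation of the libraries was wider in the genes that fell. In all 132 genes that rose and all 284 that fell the libraries of 1 age lay above all those of the other. The same contrast chose these genes, so their separation is no test of it. Of the 284 that fell, 175 had a lowest 35-week value more than 2 times the highest 66-week value, and 54 more than 4 times. Of the 132 that rose, 35 had a lowest 66-week value more than 2 times the highest 35-week value, and 10 more than 4 times. These counts include 4 rises and 1 fall listed at 0 in every library of the other age, which give no ratio. Without counting such genes, 476 of the 11440 tested genes had a gap of more than 2 times and 100 of more than 4. Over all tested genes, the 66-week libraries all lay above the 35-week libraries in 2071 genes (18.1%) and all below in 2138 genes (18.7%). Unadjusted p-values under 0.05 from limma were given to 1434 genes higher and 1504 genes lower at 66 weeks. The 2 directions were thus near equal in number among separated genes, and unequal past the adjusted threshold.

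The number of calls rested on every one of the 6 libraries. Without 66-week replicates 1, 2 and 3, 18, 6 and 4 genes were higher and 37, 10 and 7 lower. Without 35-week replicates 1, 2 and 3, 1, 3 and 8 were higher and 1, 4 and 12 lower. Of the changed genes, 115 that rose and 245 that fell were called in none of these 6 fits, and 1 in each direction in all of them. Without 12-week replicate 3, which enters only through the shared spread, 598 genes were higher and 935 lower, and without 12-week replicate 1 there were 73 and 193. Of the changed genes, 18 that rose and 87 that fell stayed past the threshold under all 12 alternatives that leave out no single library. Among these 12, 1 leaves all the 12-week libraries out of the fit together. The median log2 fold change of those 18 was 1.36, and their median levels were 50.6 FPKM at 66 weeks and 14.1 FPKM at 35 weeks. For the 87 it was -1.76, with median levels of 10.6 FPKM at 66 weeks and 42.9 FPKM at 35 weeks. Of the 87, 37 lay in the class of 10 to 30 FPKM, 26 in that of 30 to 100 FPKM and 12 in that of 100 to 300 FPKM. Of the 18, these classes held 5, 9 and 2. Of the 11440 tested genes they held 3730, 2652 and 747. None of the 18 or the 87 had a mean of 1000 FPKM or more, a class of only 189 tested genes. Genes below 5 FPKM could not be among them, since 1 of the alternatives leaves those genes out.

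Among genes past the threshold, the largest fall was in ENSAPLG00000007105. It had 34.9 and 27.0 FPKM in 66-week replicates 1 and 2 and was listed at 0 in replicate 3, against 5179, 4234 and 4329 FPKM at 35 weeks. All 35-week birds were thus more than 100 times above any 66-week bird. Its 12-week values differed widely between birds, at 1410, 66.6 and 16.2 FPKM, and enter the SE through the shared spread. The log2 fold change was -8.83 ± 1.77 (SE), and limma gave an adjusted p of 0.0431. The gene was called in none of the 6 fits without a compared library (adjusted p 0.0903 to 0.128).

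The second, ENSAPLG00000014341, had 4.63, 1.57 and 0.708 FPKM at 66 weeks, against 490, 414 and 573 FPKM at 35 weeks. Its 35-week values lay close together, and all 66-week values were below 5 FPKM. Its mean was 2.30 ± 2.06 FPKM in the 66-week birds and 492 ± 79.8 FPKM in the 35-week birds (SD, n = 3 each), a 35-week level 214 times that at 66 weeks. The log2 fold change was -7.39 ± 0.47 (SE), and limma gave an adjusted p of 0.00156. It is the 1 falling gene that was called in all 6 fits without a compared library, with an adjusted p of at most 0.0186. Its 12-week values of 4.96, 2.16 and 7.24 FPKM lay near those at 66 weeks.

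Among genes past the threshold, the largest rise was in ENSAPLG00000001369, with 119, 62.2 and 99.8 FPKM at 66 weeks, against 0 in all 3 libraries of 35 weeks. It was also listed at 0 in all 12-week libraries. The log2 fold change was 6.51 ± 0.23 (SE) at a limma adjusted p of 3.19e-05, the smallest of all genes, and it was called in all 21 alternatives. Against a group listed at 0 this fitted value depends on the pseudocount and is not read as a fold. The libraries of 35 and 12 weeks, all at 0, add no spread. The small SE, the p-value and the calls in the alternatives rest on these zeros and are not read as its strength. The 66-week values can stand for very few fragments. Equal numbers of fragments give the same ratio between libraries in gene models of like length, and the log2 ratios of this gene were 0.93 for replicate 1 over 2, 0.25 for 1 over 3 and -0.68 for 2 over 3. Among other genes with few nonzero libraries and a smallest value above 30 FPKM, 10 of 28, 14 of 29 and 19 of 34 had ratios within 0.25 of these. The share of matches at other ratios was not computed, so whether these values stand for few fragments was not tested. The number of fragments behind the values is not known.

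ENSAPLG00000008256 had the second largest rise past the threshold. It had 128, 118 and 133 FPKM at 66 weeks, against 7.29 and 6.08 FPKM in 35-week replicates 1 and 3, and was listed at 0 in 35-week replicate 2. The 66-week birds agreed closely, and the lowest of them was over 10 times the highest 35-week bird. The log2 fold change was 5.03 ± 0.79 (SE), and limma gave an adjusted p of 0.0279. It was called in 12 of 21 alternatives, and in none of the 6 fits without a compared library (0.0513 to 0.0938).

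Further down the ranking the falls stayed larger than the rises. The genes ranked 3 to 12 among the falls had log2 fold changes of -6.19 to -3.52, and adjusted p-values of 0.0133 to 0.04 from limma. Their means at 66 weeks ran between 0.159 and 29.97 FPKM, with a median of 3.12 FPKM. At 35 weeks their means ran between 19.9 and 464 FPKM, with a median of 81.8 FPKM. The genes ranked 3 to 12 among the rises had log2 fold changes of 2.45 to 3.23, and adjusted p-values of 0.0148 to 0.0487 from limma. Their means at 66 weeks ran between 9.46 and 2348 FPKM, with a median of 53.1 FPKM. At 35 weeks they lay between 0 and 322 FPKM, with a median of 5.67 FPKM. In each of these groups of 10, 1 gene had a library listed at 0.

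The leading falls by abundance class show how low the 66-week levels were. In the class of 30 to 100 FPKM, the largest fall was to 1.27, 0.656 and 0 FPKM at 66 weeks, against 136, 91.1 and 116 FPKM at 35 weeks (log2 fold change -6.19 ± 0.91 (SE), limma adjusted p 0.0238). The largest of the class of 10 to 30 FPKM was to 0.156, 0.181 and 0.140 FPKM at 66 weeks, against 17.0, 33.3 and 9.56 FPKM at 35 weeks. The 66-week birds differed little there and the 35-week birds by more than 3 times, and limma gave an adjusted p of 0.0133 at -4.01 ± 0.40 (SE) in log2. This gene was called in 19 of 21 alternatives and in 4 of the 6 fits without a compared library, against 15 of 21 and 0 of 6 for the gene of 30 to 100 FPKM. In the class of 300 to 1000 FPKM, the leading gene had 196, 334 and 181 FPKM at 66 weeks, against 1518, 1151 and 880 FPKM at 35 weeks, and its log2 fold change was the smaller one of -2.34 ± 0.45 (SE) (limma adjusted p 0.0395). That last gene was called in 13 of 21 alternatives and in 0 of the 6 fits without a compared library.

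The leading falls of the lowest classes ended at or near 0. The gene of the class of 3 to 10 FPKM had 0.950, 0.983 and 0 FPKM at 66 weeks, against 12.4, 8.79 and 22.8 FPKM at 35 weeks (log2 fold change -3.22 ± 0.59 (SE), limma adjusted p 0.0379). That of 1 to 3 FPKM was listed at 0 in all 66-week libraries and at 3.43, 2.26 and 4.39 FPKM at 35 weeks (limma, adjusted p 0.0279). The first of these was called in 11 of 21 alternatives and the second in 13 of 20, and both in 0 of the 6 fits without a compared library. The pseudocount of 1 FPKM limits the fold change that such low genes can show.

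The leading rises had 35-week levels well above 0 in the higher classes. In the class of 1000 FPKM or more, the gene had 1977, 3423 and 1643 FPKM at 66 weeks, against 569, 234 and 164 FPKM at 35 weeks (log2 fold change 2.99 ± 0.56 (SE), limma adjusted p 0.038). That of 300 to 1000 FPKM had 404, 474 and 920 FPKM at 66 weeks, against 122, 64.6 and 64.0 FPKM at 35 weeks (log2 fold change 2.80 ± 0.42 (SE), limma adjusted p 0.025). In both, the lowest 66-week bird was about 3 times the highest 35-week bird. The leading rise of 100 to 300 FPKM had 446, 308 and 309 FPKM at 66 weeks, against 95.2, 62.5 and 41.7 FPKM at 35 weeks (limma, adjusted p 0.0438).

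In the lower classes the 35-week levels of the leading rises were low or listed at 0. The gene of 10 to 30 FPKM had 85.2, 30.6 and 22.8 FPKM at 66 weeks, against 5.98, 5.57 and 5.09 FPKM at 35 weeks, so that the 35-week birds were alike and 66-week replicate 1 stood above the other two (limma, adjusted p 0.0487). The gene of 3 to 10 FPKM had 17.8, 7.44 and 3.15 FPKM at 66 weeks and was listed at 0 in all libraries of 35 weeks (limma, adjusted p 0.0431). That of 1 to 3 FPKM had 7.73, 3.40 and 3.17 FPKM at 66 weeks, against 0 in all libraries of 35 weeks (limma, adjusted p 0.0238). None of these leading rises outside the class of 30 to 100 FPKM was called in any of the 6 fits without a compared library. Since 0 can be a failed estimate, no fold is read from the genes listed at 0. In all, 9 tested genes were listed at 0 in every 35-week library and above 0 in every 66-week library, and 4 of these passed the threshold. The opposite pattern was seen in 2 genes, of which 1 passed.

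**Figure D2:**
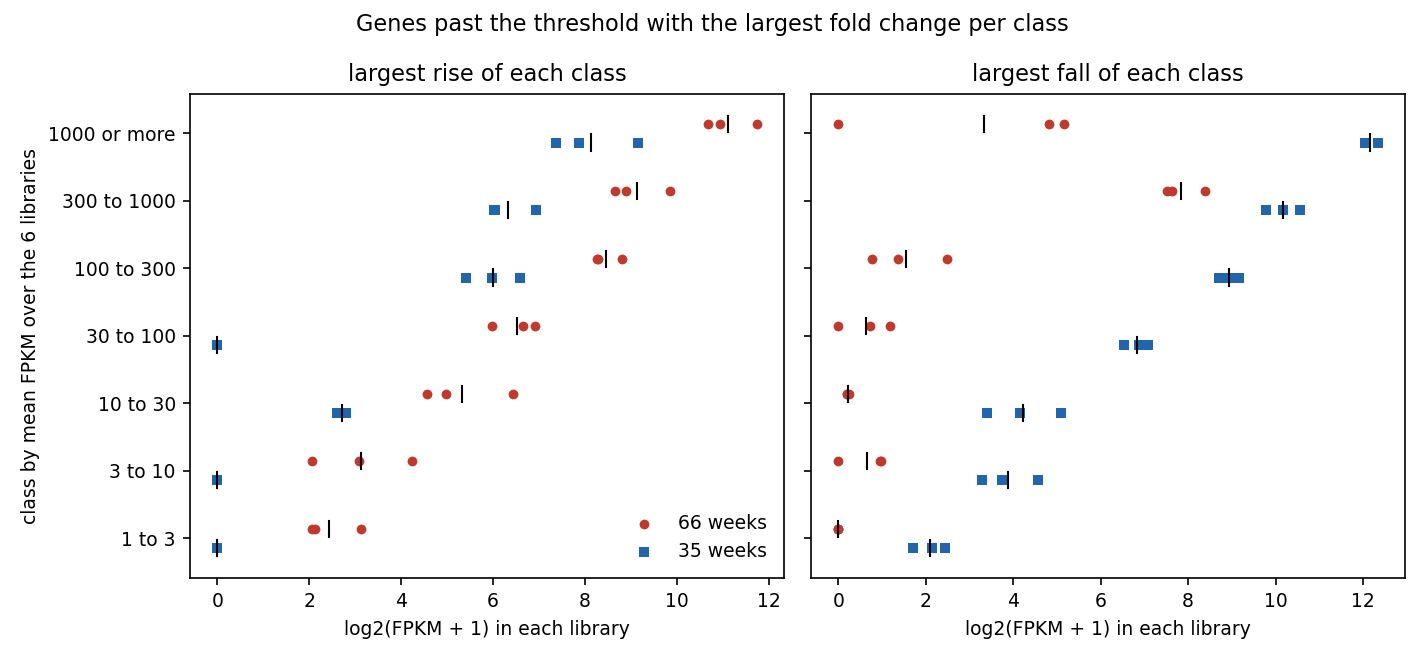
The gene with the largest rise (left) and the largest fall (right) past the threshold in each class of mean FPKM is shown, as log2(FPKM + 1) in each 66-week (red circles) and 35-week (blue squares) library, with the mean as a black line. The libraries of the ages do not overlap in any of the 14 genes, which the choice of genes requires, and values at 0 are libraries in which the gene is listed at 0.

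In the class of 1000 FPKM or more, 5 genes passed the threshold, and the ones not yet described were chosen after their values were seen. The most abundant of these fell to 4885, 5105 and 4587 FPKM at 66 weeks, against 22359, 23626 and 37958 FPKM at 35 weeks (log2 fold change -2.48 ± 0.43 (SE), limma adjusted p 0.0338). Its 66-week birds lay within a narrow range, and 35-week replicate 3 stood above the other 35-week birds. Another gene rose to 13623, 11134 and 12349 FPKM at 66 weeks, against 5088, 3634 and 3987 FPKM at 35 weeks (log2 fold change 1.55 ± 0.31 (SE), limma adjusted p 0.0431). The smallest of the changes was a rise to 2843, 2409 and 2769 FPKM at 66 weeks, against 1347, 1395 and 1596 FPKM at 35 weeks (log2 fold change 0.89 ± 0.18 (SE), limma adjusted p 0.0438). None of these calls held in any of the 6 fits without a compared library. The fall was called in 14 of 21 alternatives and each of these rises in 10 of 21. With the same sum of FPKM both rises missed the threshold (limma, adjusted p 0.0643 and 0.107), as with quantile normalization (0.169 and 0.145).

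Fold changes shifted upward with abundance. The median log2 fold change was -0.14 in the 1288 genes of 1 to 3 FPKM and -0.02 in the 2532 genes of 3 to 10 FPKM. It was 0.03 in the 3730 genes of 10 to 30 FPKM and 0.06 in the 2652 genes of 30 to 100 FPKM. The 747 genes of 100 to 300 FPKM had a median of 0.12, the 302 genes of 300 to 1000 FPKM one of 0.17, and the 189 genes of 1000 FPKM or more one of 0.44. The share of genes with a positive fold change was 41.4% in the lowest class, 56.4% at 30 to 100 FPKM and 70.9% in the highest class, against 52.3% of all tested genes. Genes of a class are not replicates, so these are descriptions with no test.

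The tails of the distribution did not follow this order throughout. A log2 fold change below -1 was seen in 14.3% of genes at 1 to 3 FPKM, 5.35% at 30 to 100 FPKM, 10.3% at 300 to 1000 FPKM and 7.94% at 1000 FPKM or more. One above 1 was seen in 3.73%, 5.28%, 16.2% and 27.5% of genes in the same classes. Genes listed at 0 in a library add to these tails, and 31 of the 189 genes of 1000 FPKM or more are such genes. In genes above 0 in all 6 libraries, the shares of that class were 2.53% below -1 and 20.9% above 1. At 1 to 3 FPKM they were 9.82% and 1.76%. Libraries of 66 weeks all lay above those of 35 weeks in 8.93% of the genes of 1 to 3 FPKM and all below in 21.2%. At 10 to 30 FPKM these shares were 19.5% and 19.2%. In the class of 1000 FPKM or more they were 31.7% and 5.29%, 60 genes against 10. Over all genes they were 18.1% and 18.7%, as given above.

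Calls past the threshold did not follow the shift in fold change. The share of genes called lower was 1.01% at 1 to 3 FPKM, 2.76% at 10 to 30 FPKM and 4.64% at 300 to 1000 FPKM, and 1.06% at 1000 FPKM or more (limma, adjusted p below 0.05). The share called higher was 0.233%, 1.18%, 1.99% and 1.59% in the same classes, and was highest at 100 to 300 FPKM with 2.54%. In each of the 6 classes below 1000 FPKM more genes were called lower than higher, 103 against 44 at 10 to 30 FPKM and 77 against 37 at 30 to 100 FPKM, for example. In the highest class 3 were called higher and 2 lower. Among called genes that fell, class medians of the log2 fold change lay between -1.86 at 3 to 10 FPKM and -1.39 at 30 to 100 FPKM in the classes below 1000 FPKM.

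**Figure D3:**
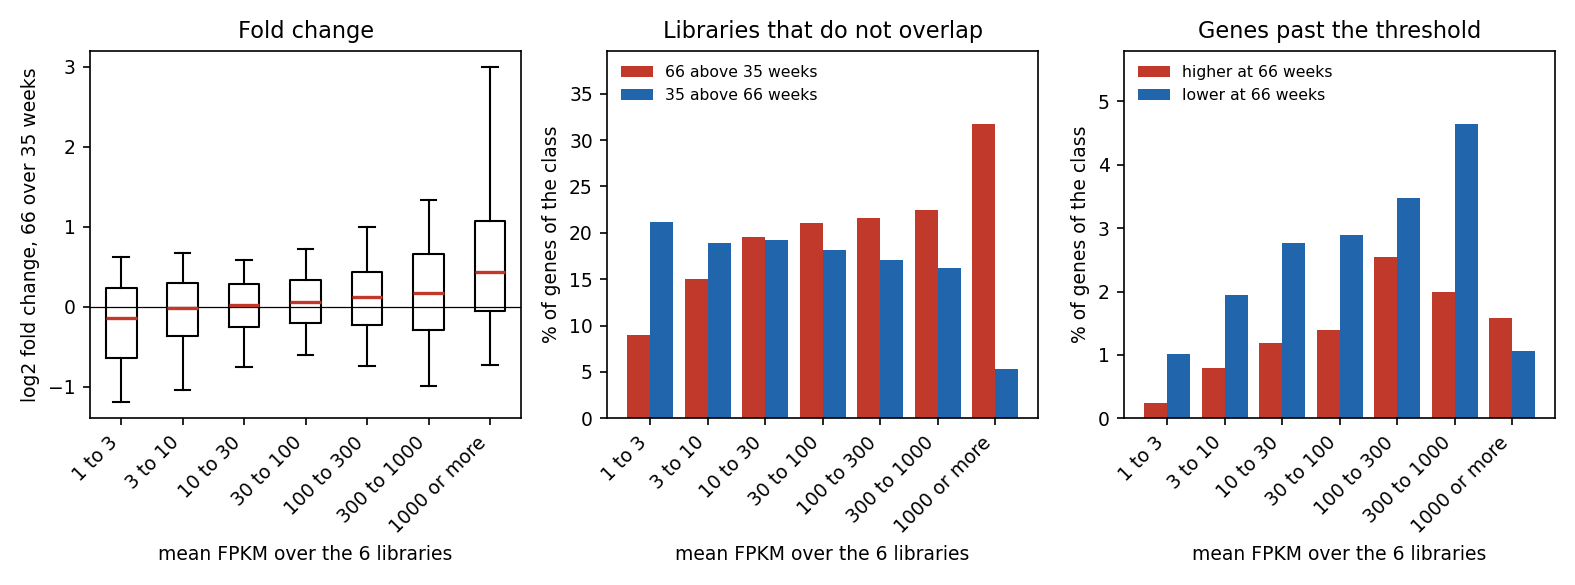
For each class of mean FPKM over the 6 libraries, the left panel gives the log2 fold change of 66 over 35 weeks (box: quartiles, line: median, whiskers: percentiles 10 and 90). The other panels give the share of genes whose libraries do not overlap and the share past the threshold, in red for higher and in blue for lower at 66 weeks. Medians run upward from -0.14 to 0.44 with abundance, while the calls below 1000 FPKM were mostly of lower genes.

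The order of the classes held when they were set by other levels. With classes from the 12-week libraries, which are not in the contrast, the median was -0.07 in the lowest class and 0.28 in the 139 genes of the highest. With genes above 0 in all 6 libraries it was -0.11 and 0.40. Median-ratio scaling left it at -0.14 and 0.44, but it hardly changed the values and so could not move the classes much. Under it the mean sum of FPKM went from 1972453 to 1948322 at 66 weeks and from 1606167 to 1591245 at 35 weeks. With all libraries brought to the same sum of FPKM, the median of all tested genes moved to -0.24, that of the lowest class to -0.31 and that of the highest to 0.15. That scaling multiplies every gene of a library by 1 factor. On the log2(FPKM + 1) scale such a factor does not move low and high genes equally, and the medians still ran upward from each class to the next. Quantile normalization, which gives all libraries 1 distribution and so removes such a shift by construction, gave 0.06 and -0.02.

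The most abundant genes also set the total of the FPKM values. The median of the class of 1000 FPKM or more was 2074, 2094 and 2239 FPKM in the 66-week libraries, against 1602, 1436 and 1662 FPKM in the 35-week libraries. Every 66-week library lay above every 35-week library, with a ratio of the means of 1.36. The class held 73.3 ± 1.12% of the summed FPKM at 66 weeks and 69.3 ± 2.61% at 35 weeks (SD, n = 3 each), again without overlap. In genes above 0 in all 6 libraries these shares were 66.8 ± 2.85% at 66 weeks and 64.0 ± 3.94% at 35 weeks and overlapped (exact permutation p = 0.3). The sum over all genes was 1972453 ± 149720 FPKM in the 66-week birds and 1606167 ± 107047 FPKM in the 35-week birds (SD, n = 3 each). Of the difference of 366287 FPKM between these means, 90.9% lay in the class of 1000 FPKM or more. For the class median, the class share over all tested genes and the sum, the exact permutation p was 0.1, the smallest that 3 libraries against 3 allow, and 0.2 after Benjamini-Hochberg adjustment over 20 such measures. With all libraries at the same sum, the class medians of the ages overlapped and their ratio was 1.11.

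Classes below 100 FPKM held smaller shares of the sum at 66 weeks. Genes of 30 to 100 FPKM held 7.23 ± 0.395% at 66 weeks and 8.56 ± 0.729% at 35 weeks, and genes of 10 to 30 FPKM 3.46 ± 0.213% at 66 weeks and 4.30 ± 0.383% at 35 weeks (SD, n = 3 each). These shares did not overlap between the ages (exact permutation p = 0.1 each, adjusted 0.2). Their median levels did overlap, at 47.8 ± 2.04 FPKM in the 66-week birds and 45.8 ± 1.52 FPKM in the 35-week birds for the class of 30 to 100 FPKM (SD, n = 3 each; exact permutation p = 0.3). Fewer genes reached 1 FPKM at 66 weeks, 11125, 10931 and 10814, against 11146, 11291 and 11170 at 35 weeks (exact permutation p = 0.1, adjusted 0.2). The numbers of genes listed at 0 overlapped, at 1889, 1835 and 2039 at 66 weeks and 1835, 1693 and 1764 at 35 weeks.

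Some genes at the top of the range, such as the 2 with the highest means, differed widely between birds of the same age. The gene with the highest mean had 208459, 118072 and 223296 FPKM at 66 weeks, against 95899, 56201 and 82910 FPKM at 35 weeks. All 66-week birds lay above the 35-week birds, but the log2 fold change of 1.21 ± 0.56 (SE) did not pass the test (limma, adjusted p 0.216). The gene with the next highest mean had 46994, 100431 and 90025 FPKM at 66 weeks, against 122401, 213735 and 120532 FPKM at 35 weeks, the opposite order, and did not pass either (limma, adjusted p 0.247). Together the 20 genes with the highest means held 46% of the summed FPKM of the 6 libraries. In 10 of the 20 the 66-week libraries all lay above those of 35 weeks, in 2 all below, where over all tested genes these were 18.1% and 18.7%. Of the 20, 0 passed the limma threshold as higher and 1 as lower, where 1.15% and 2.48% of all tested genes did. Of the 10 largest gains in mean FPKM, 7 had libraries that did not overlap and 0 passed the adjusted threshold in limma. Of the 10 largest losses, 3 had libraries that did not overlap and 1 passed. The same shares of all tested genes apply beside these counts. The difference in mean FPKM between the ages chose these genes, so their separation is no test of it. The third largest gain rests on 2 birds: the gene had 0, 69603 and 14744 FPKM at 66 weeks and was listed at 0 in all libraries of 35 weeks.

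The estimated FPKM value of a single fragment was compared between the ages, relative to genes of low fragment value. The estimate used genes above 0 in more than 1 of the compared libraries but not in all. Their smallest nonzero value was taken as the worth of 1 fragment, and the most common ratio of nonzero values was compared between libraries. Such values can stand for more than 1 fragment, so differences in level between birds or ages can enter the estimate. In genes for which 1 fragment is so estimated at up to 0.12 FPKM, the ratio between libraries was read as their relative depth, if no further scaling was applied. It was 0.896, 1.29 and 1.0 at 66 weeks and 0.893, 0.972 and 0.995 at 35 weeks, a ratio of 1.45 between the deepest and the shallowest library. These genes are the reference, so a shift near 0 in them is set by construction. Relative to them, the value of 1 fragment at 66 weeks over 35 weeks was shifted in genes of higher fragment value. Where 1 fragment is worth 0.3 to 1 FPKM the shift was 0.08 (log2), from 241 genes. This is less than the error that the check on simulated data allowed. The shift was 0.22 at 1 to 3 FPKM, from 104 genes, 0.3 at 3 to 10 FPKM, from 48 genes, and 0.52 at 10 to 30 FPKM, from 41 genes. Between the 66-week libraries it ranged over 0.29 to 0.32 at 3 to 10 FPKM and over 0.33 to 0.55 at 10 to 30 FPKM. Above 30 FPKM, from 83 genes, it was 0.33 over all pairs of libraries and 0.34 to 0.91 in single 66-week libraries. A fragment is worth more FPKM in a shorter gene model, and short models can reach high FPKM values with few fragments. The shift had the sign of the median of 0.44 in the genes of 1000 FPKM or more and reached a like size. Its part in that result was not tested, since gene model lengths were not used here.

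**Figure D4:**
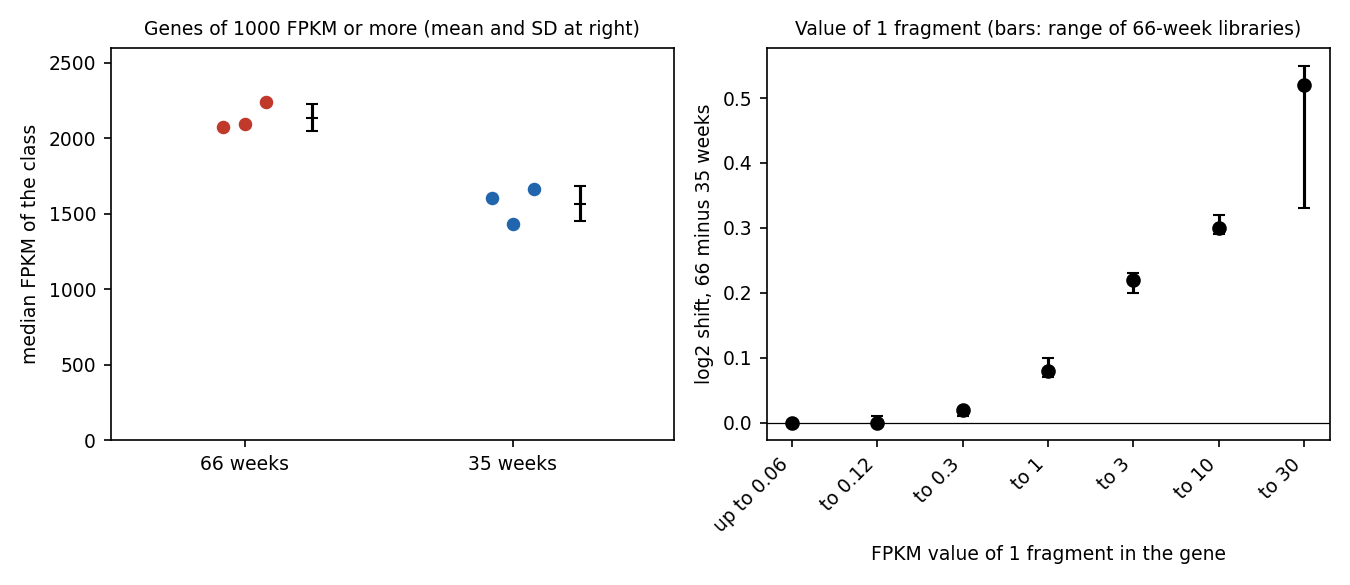
The left panel gives the median FPKM of the 189 genes of 1000 FPKM or more in each 66-week (red) and 35-week (blue) library, with the mean and SD (n = 3) at the right of each age. The right panel gives the log2 shift of the estimated FPKM value of 1 fragment, 66 minus 35 weeks. It is drawn by the estimated worth of 1 fragment in the gene, with bars for the range over the 66-week libraries. The class medians of the ages do not overlap. Genes of low fragment value are the reference, so their shift is near 0 by construction, and in the other genes drawn the shift reaches 0.52. Genes with a fragment value above 30 FPKM are not drawn.

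Spread between birds was alike at both ages. The median over tested genes of the SD of log2(FPKM + 1) was 0.213 at 66 weeks and 0.215 at 35 weeks. In the genes that rose it was 0.185 at 66 weeks and 0.168 at 35 weeks, and in the genes that fell 0.207 at 66 weeks and 0.234 at 35 weeks. At 12 weeks, the genes that rose had a median level of 23.5 FPKM and the genes that fell one of 19.0 FPKM.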

How the data were processed

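RNA from abdominal fat of Muscovy duck was sequenced in 9 libraries, and the 6 libraries from birds of 66 and 35 weeks are compared here. Per the file headers, the values the authors deposited are FPKM by gene for each library. The tools are TopHat2 2.0.9, Cufflinks 2.1.1 and Cuffdiff, per the submitters' processing notes. The annotation is not named: the gene identifiers carry the prefix ENSAPLG, and whether their gene models are those of Muscovy duck is not stated. Genome build, strand setting and how libraries were scaled: not given in the sources used here. Depth in reads is therefore unknown, and no counting error is given.

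No count model was applied, since FPKM is a normalized unit. Genes averaging 1 FPKM or more across the 6 libraries were taken as log2(FPKM + 1). They were fitted with limma 3.58.1 in R 4.3.3 in 1 model of the 3 ages with an intensity trend. Degrees of freedom were 6 (residual) and 2.04 (prior). The contrast was 66 minus 35 weeks, two-sided, with Benjamini-Hochberg adjustment over all 11440 genes tested and a threshold of 0.05. Single values per library were compared by exact permutation tests. The fit and the estimate of fragment values were run on simulated data with known changes. For the fit, most of the largest changes had to be recovered, and no limit was set on false calls. The simulated fragments varied by counting alone, with no difference in level between birds. That run therefore does not cover such differences, and the highest fragment values were left out of its check. Python 3.11.15, numpy 2.4.6, pandas 2.3.3 and matplotlib 3.10.9 were used for the rest.

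Named genes were those past the threshold whose libraries did not overlap, ranked by log2 fold change: the 2 largest in each direction by identifier, and the largest of each abundance class by level only, since the file pairs no identifier with a gene name. Lists of adipocyte, lipid metabolism, sterol synthesis, matrix, respiratory chain, ribosome, yolk precursor and cell type marker genes could not be matched for that reason. The comparison, classes and tests were chosen with earlier results of these data known. The replicate numbers of the labels did not pair the birds: the deviations of same-numbered libraries of 66 and 35 weeks correlated at -0.0945, 0.0599 and 0.043. Alternatives changed the pseudocount, the filter, the scaling, the trend, the libraries fitted, their weights and the class definition. No libraries held identical values.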

Additional observations from a re-analysis of the deposited data

How the results depend on the processing

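Numbers of genes below use limma and an adjusted threshold of 0.05. Why they moved (the cause was not tested) is left aside, except that leaving out samples leaves fewer samples. The 132 higher and 284 lower genes became 66 and 159 with no filter, 435 and 780 with only the 66-week and 35-week libraries fitted, and 1151 and 1269 with libraries weighted by their fit (0.289 for 12-week replicate 3, the lowest, and 3.66 for 35-week replicate 2, the highest). The same sum of FPKM in all libraries gave 55 and 460, 10.7% higher, with the median of all genes at -0.24. The replicate number as a block gave 42 higher and 141 lower. Shared with the unblocked calls were 31 and 120. Whether the replicate numbers mark a shared batch is not known. Leaving out each library in turn gave 1 to 598 higher and 1 to 935 lower, and without 12-week replicate 1 they were 73 and 193. Smaller pseudocounts, a mean of at least 5 FPKM, the filter over 9 libraries, median-ratio scaling, quantile normalization and no trend stayed within 1.5 times in both directions. The median log2 fold change of genes of 1 to 3 FPKM became 0.058 with quantile normalization and -0.307 with the same sum, and ran from -0.204 without 66-week replicate 1 to -0.086 without 35-week replicate 2. That of genes of 1000 FPKM or more became 0.343 with classes by mean log2 level, 0.284 with classes by the 12-week mean, -0.022 with quantile normalization, 0.146 with the same sum, and 0.333 to 0.488 without 1 library at a time. The ratio of that class's median level became 1.11 with the same sum. Precision is limited by 3 birds per age, and the depth in reads is not given.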
